A study of Mus musculus with 17 samples.

Results

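This account describes how gene expression in the Egr1 knockout mouse uterus moved between 3 h and 6 h after estradiol (E2), the ovarian estrogen. The step compares 4 of the 17 bead arrays of the series. These are the 2 KO arrays at 3 h, titled B and C, and the 2 KO arrays at 6 h, titled A and B. The KO 0 h arrays (2) served as the start. The wild-type (WT) arrays at 0 h (2), 3 h (3) and 6 h (2) were the comparison. The KO (2) and WT (2) arrays at 24 h entered the spread shared by the fit of all 17 arrays. KO 24 h medians are also given for genes chosen on WT arrays. All groups were uterine tissue of mice labelled KO or WT for Egr1, and the 0 h groups are labelled as 0 h of E2. The labels used here do not state strain, age, E2 dose or route, any ovariectomy, or the kind of knockout allele. The values are log2 intensities, so a step of 1 is 2-fold, and "called" means an adjusted p under 0.05 over all 14737 genes tested.

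E2 acts in the uterus through nuclear receptors that bind DNA and through rapid kinase signalling, and the response comes in waves. Immediate-early transcription factors and their feedback inhibitors come first, followed by genes for water transport, amino acid supply, ribosome assembly, protein folding and secretion. EGR1 is itself an immediate-early zinc finger factor, and the comparison of the 2 times asks which early changes decay, hold or start when it is disrupted.

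The probe for Egr1 read 14.69 and 14.59 in the KO 3 h arrays and 14.74 and 14.55 in the KO 6 h arrays, against 13.48 and 13.63 at 0 h. The 2 times overlapped, with a step of 0.01 ± 0.18 SE (adjusted p = 0.982). The signal was high in tissue labelled KO. The labels used here do not say which stretch of Egr1 was disrupted or whether the probe lies in it, so the level does not check the label.

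Arrays of the same time were not equally alike. Correlation across genes was 0.9899 between the KO 3 h arrays and 0.9904 between the KO 6 h arrays, against 0.9949 for KO 0 h and 0.9979 for WT 6 h, and 0.9685 to 0.9823 between a 3 h and a 6 h KO array. Adipocyte markers (8 measured) averaged 11.5 and 11.61 in the KO 0 h arrays, above every KO 3 h and 6 h array. They averaged 9.20 in KO 3 h array B and 10.31 in array C, and 9.01 in KO 6 h array A and 10.35 in array B. Their median change from 0 h was -2.14 at 3 h and -2.21 at 6 h. The fat cell hormone gene Adipoq ran from 9.02 and 11.39 at 3 h to 9.03 and 11.47 at 6 h, so the arrays of each time differed far more than the times. Interferon-stimulated genes (22 measured) averaged 9.13 in KO 3 h array B, 9.78 in array C, and 9.13 and 9.25 at 6 h. Smooth muscle markers averaged 11.58 to 11.94 over the 4 arrays, epithelial markers 10.22 to 10.42, and the 5 measured ovary and oviduct markers 8.43 to 8.63, near the array median of 8.205. In bulk tissue fewer cells of a type and less RNA per cell cannot be told apart, and the part of these differences in the results below was not tested.

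From 3 h to 6 h, 3440 genes were called in KO (23.3% of those tested), 1718 higher (11.7%) and 1722 lower (11.7%). After cyclic loess the split was 1342 higher and 2054 lower. Most steps were small, with a median size of 0.39 among called genes, and 92.0% of all genes stayed within -0.5 to 0.5. At least 2-fold, 53 genes rose and 117 fell (1.15% of genes together). The arrays of the 2 times did not overlap for 54.0% of all genes and for 3439 of the called ones. The SD of the difference between the 2 arrays of a time was 0.205 for KO 3 h and 0.2 for KO 6 h. It was 0.094 for WT 6 h, 0.106 for KO 24 h and 0.095 for WT 24 h, but 0.211 for WT 0 h. The fit of all arrays shares the spread of a gene between groups, so its SE and adjusted p for this step may be too small. A fit of the 4 arrays alone, which has 2 residual degrees of freedom where the fit of all arrays has 9, called 893 genes, and without KO 6 h array A 1885 were called. Without each of the 4 arrays in turn, 1457 of the 3440 stayed called (42.4%), and 157 of the 170 at 2-fold or more.

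The largest falls were of genes that E2 had raised by 3 h and of genes that had been high before it. Cacna1h, a T-type calcium channel gene, was 12.39 and 12.16 at 3 h and 10.13 and 10.25 at 6 h, against 9.78 and 9.83 at the start. Its step was -2.09 ± 0.11 SE (adjusted p = 5.78e-07), and the 2 times lay well apart. Wwc2, a scaffold gene related to the Hippo pathway protein KIBRA, went from 14.19 and 13.94 to 11.94 and 12.40, a step of -1.90 ± 0.13 (4.09e-06). The 6 h values overlapped those of 0 h, 12.16 and 11.91. The antiproliferative gene Tob1 read 12.24 and 11.99 at 3 h and 9.83 and 10.84 at 6 h. Array A had come closer to the start (9.51 and 9.46) than array B, and the step was -1.78 ± 0.21 (6.60e-05). The same order was seen in Flrt1, an adhesion protein gene, at 13.18 and 13.14 and then 10.53 in array A and 11.78 in array B (-2.0 ± 0.26, 1.41e-04).

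Another set of falling genes had not risen first. Tfcp2l1, a grainyhead-family transcription factor gene of epithelia, was 13.71 and 13.63 at 0 h, 13.57 and 13.79 at 3 h, and 11.61 and 11.86 at 6 h (step -1.94 ± 0.15, 5.23e-06). It had held its starting level through 3 h in both arrays and then dropped in both. Ypel3, a growth-suppressing gene, fell at both steps, from 14.36 and 14.24 to 12.68 and 13.41 and then to 10.71 and 11.70 (-1.84 ± 0.28, 4.87e-04), although its other kept probe moved by 0.08. Sema5a, a semaphorin guidance gene, fell by 1.74 on the log2 scale (1.93e-05), and its other 3 probes read -1.55, -0.07 and 0.09. Prap1, a secreted proline-rich protein gene of the uterine epithelium, fell by 1.82 (2.34e-04), the sulfotransferase gene Sult1d1 by 1.81 (1.95e-03; other probe -0.03) and the transcript 5730409K12Rik by 1.77 (1.42e-04).

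Among the 10 largest rises were Sprr2f, Sprr2g, Lcn2, Asns and Psat1. Sprr2f, a small proline-rich protein of cornifying epithelium, was 10.04 in KO 3 h array B and 11.86 in array C, and 12.82 and 12.69 at 6 h. Its 0 h arrays were as far apart, 10.16 and 11.87, and the step of 1.80 ± 0.50 SE had an adjusted p of 0.0183. Sprr2g rose more evenly, from 10.80 and 10.69 to 12.35 in both 6 h arrays (1.6 ± 0.20, 1.29e-04); the Sprr2 genes are near-identical, so a probe may read more than 1 of them. Lcn2, the siderophore-binding protein lipocalin 2, went from 11.87 and 12.32 to 13.51 and 13.99 (1.65 ± 0.34, 2.92e-03). Scnn1b, a subunit of the epithelial sodium channel, stood at 8.98 and 8.92 at 3 h, level with its start, and at 10.53 and 10.25 at 6 h (1.44 ± 0.13, 1.10e-05). The matrix genes Spon2 (1.71, 7.20e-05) and Tnc (1.43, 4.54e-03) were among the top 10 as well, but Tnc was 10.94 in KO 6 h array A and 9.48 in array B, and other probes of Spon2 (0.13) and of Tnc (0.09 to 1.27) moved less. Urah, a urate pathway enzyme gene, rose by 1.52 (1.63e-05). Angptl4, a secreted inhibitor of lipoprotein lipase, had fallen from 11.16 and 11.35 to 9.69 and 10.03 and came back to 11.17 and 11.65 (1.55 ± 0.20, 1.63e-04; other probe 0.04).

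Among genes that E2 had moved at least 2-fold by 3 h in KO, 339 were higher (2.3% of genes) and 320 lower (2.17%). These changes were sorted by their step. A change decayed if the step was called against it, grew if called along it, held if the step was not called and its 95% interval lay within -1 to 1, and was undecided otherwise. The 3 h arrays enter the early change and the step alike, so noise in them moves genes towards decay, and the shares are a description with no test. Of the early rises 159 decayed (46.9%), 140 held (41.3%), 30 grew (8.85%) and 10 were undecided. Of the early falls 56 decayed (17.5%), 170 held (53.1%), 70 grew (21.9%) and 24 were undecided. Another 54 genes started, 31 up and 23 down, meaning that they were within 0.5 of the start at 3 h and uncalled, then called and at least 2-fold away at 6 h. Leaving out KO 6 h array A, the decayed rises numbered 116, the decayed falls 36, the grown changes 52 and the starting genes 25. Without KO 3 h array C 61 changes grew, and the starting genes numbered 116 without KO 3 h array B and 103 without KO 6 h array B. By 6 h 970 genes (6.58%) were called and at least 2-fold from the start.

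Decay was mostly partial. Of the 159 decaying rises, 130 were still called above 0 h at 6 h, 28 were not, and 1 had gone below its start. Their median went from 1.45 above the start at 3 h to 0.681 at 6 h. WT values are in none of the differences that sorted these genes, though WT arrays add to the spread shared by all groups. The WT step was called lower for 141 of the 159, where 12.7% of all genes were. Among the 56 decaying falls 49 were called higher in the WT step, where 13.3% of all genes were.

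The decaying rises with the largest early change included Phf21b, a chromatin reader gene, which was 9.11 and 8.94 at 0 h, 13.22 and 12.77 at 3 h, and 11.53 and 12.10 at 6 h (step -1.17 ± 0.18, 5.38e-04). It kept 2.79 of an early rise of 3.96. Socs3, the feedback inhibitor of cytokine receptor signalling, was 13.61 and 13.49 and then 11.82 and 12.66 (-1.31 ± 0.19, 2.77e-04), with 2.38 of 3.69 kept. Ptges, the microsomal prostaglandin E synthase, went from 12.09 and 12.10 to 10.62 and 11.46 (-1.06 ± 0.20, 1.70e-03). In each of these genes array A was the lower 6 h array. The kallikrein genes Klk1 (3.59 at 3 h, step -0.54, 0.0246) and Klk1b27 (3.24, step -0.49, 0.0419) were sorted as decaying by a narrow margin.

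Holding and decaying could not be separated within the kallikreins. Klk1b5 (step -0.55, 0.0689; other probes -0.07 and -0.18), Klk1b26 (-0.46, 0.0665; other probe 0.07) and Klk1b21 (-0.49, 0.0950) had steps of the same size as Klk1 and were sorted as held. These tissue kallikrein proteases are near-identical in sequence, and all 5 were still 2.75 to 3.08 above 0 h at 6 h. Padi1, a peptidylarginine deiminase, stayed among the brightest genes at 15.19 and 15.34 and then 14.66 and 15.25 (-0.31, 0.396). Tmem200a held at 12.65 and 12.04 and then 12.02 and 12.08.

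Among early falls, Rspo3, a Wnt-amplifying R-spondin, dropped from 12.14 and 12.07 to 9.26 and 9.39 and regained 0.64 by 6 h (9.85 and 10.08; 1.70e-03). Denn2b, a Rab exchange factor gene, regained 1.06 (6.69e-05; other probes 0.92 and 0.12), Msc, a bHLH repressor gene, 0.98 (3.25e-03), the glycosyltransferase gene Gcnt1 0.66 (1.17e-03) and the Wnt inhibitor gene Apcdd1 0.59 (3.27e-03; other probes 0.20 and -0.03). All 5 were still at least 1.25 below their start. The falls that held included the stress-responsive Sesn1 (9.66 and 10.05, then 9.72 and 9.68, against 12.55 at 0 h; step -0.15, other probes 0.09 and -0.25), C2cd4a and the linker histone gene H1f2. Lep (8.38 and 9.34, then 8.20 and 9.6) and Plin4 (9.96 and 10.78, then 9.49 and 11.19) were sorted as held too. Both are fat cell genes, and Lep is 1 of the adipocyte markers. Both were higher in KO 3 h array C and KO 6 h array B, the arrays with the higher adipocyte markers of each time. The marker list averaged 11.5 and 11.61 at 0 h, and the part of fat tissue in the early falls was not tested.

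Among changes that grew, the largest early ones on the rising side were Slc6a13, a GABA and taurine transporter gene, at 11.67 and 11.23 and then 12.07 and 12.02 (0.60, 0.0130), the mitochondrial folate enzyme gene Mthfd2 (1.14, 0.0384), the ribosome assembly gene Rrp12 (0.63, 4.11e-03), the lipid transporter gene Mfsd2a (0.21, 0.0322) and the prostaglandin transporter gene Slco2a1 (0.58, 2.44e-03). Mthfd2 was 13.45 in KO 6 h array B but 12.30 in array A, beside 12.12 in KO 3 h array B. Of the 30 growing rises 6 were called higher in the WT step, with a median WT step of 0.0747 against 0.415 in KO. In limma 0 of the 30 differences between the genotypes was called. An unadjusted p under 0.05 was found for 17 of them and for 1625 of all 14737 genes, but the 30 were chosen on their KO step, which is part of the difference. On the falling side Dbp, a circadian output factor, went from 13.89 and 13.84 to 10.96 and 11.83 and then to 10.53 and 10.62 (-0.82, 0.0161). Klhl24 (-1.05, 7.17e-03; other probes -0.25 and -0.16), Nrep (-0.82, 2.64e-03), Sspn (-0.70, 4.52e-03) and the activin receptor gene Acvr2b (-0.57, 0.0152) fell further as well. In WT 41 of the 70 growing falls were called lower.

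The starting genes were led by the serine synthesis enzyme gene Psat1, by Igf1 and by Sprr2f. Igf1, the growth factor through which stroma signals to epithelium, was 11.07 and 11.11 at 0 h and 11.72 and 11.43 at 3 h, then 13.29 in KO 6 h array A and 12.51 in array B (step 1.33 ± 0.30, 5.60e-03). Inhba, the activin A subunit, followed at 9.5 and 9.13 and then 11.09 and 10.17 (1.31 ± 0.20, 5.11e-04). On the falling side Cpm, a membrane carboxypeptidase gene, was 10.58 and 10.44 and then 8.65 and 8.97 (-1.70 ± 0.13, 4.32e-06), and the kinase gene Dapk2 fell by 1.27 (4.30e-05; other probe -0.26) and the methyltransferase gene Inmt by 0.93 (0.0157). In WT 30 of the 31 starting rises and 20 of the 23 starting falls were called in the same direction.

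**Figure D1:**
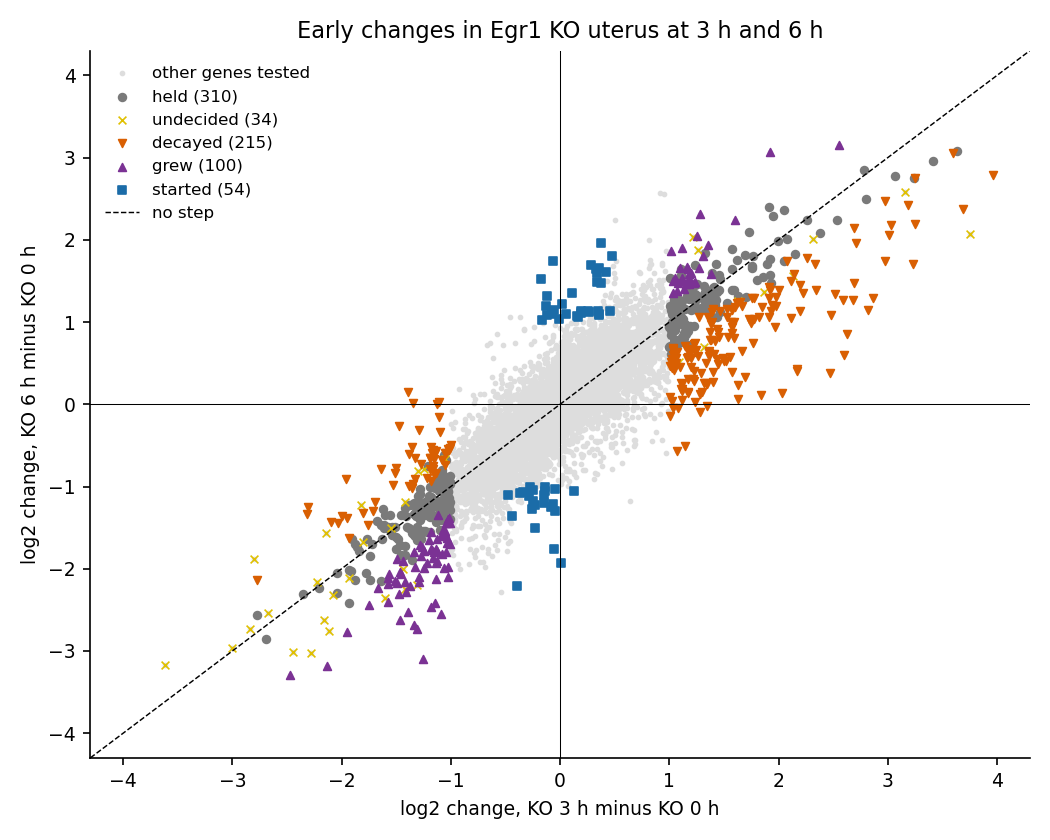
Log2 change from KO 0 h at 3 h (horizontal) and at 6 h (vertical) for each gene tested; the dashed line marks no step from 3 h to 6 h. Early rises lie mostly below the line, with 159 decayed and 30 grown, and early falls on both sides of it, with 56 decayed and 70 grown.

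Genes were also chosen on differences between WT arrays, which KO arrays entered only through the shared spread. In WT 377 genes rose at least 2-fold by 3 h (2.56%) and 400 fell (2.71%). Of the 377, 136 were called lower in the KO step (36.1%) and 56 higher (14.9%), with a median KO step of -0.206. Of the 400, 60 were called higher and 103 lower (25.8%), with a median of -0.117. Over all genes each direction was 11.7%. The WT falls called higher in KO are termed returning below, though more of the 400 were called lower. Leaving out KO 6 h array A, the returning falls numbered 33, and without KO 3 h array B 38.

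The step taken in WT itself called 3831 genes (26.0%). Of the 1874 that fell in it 1125 were called lower in KO (60.0%), and of the 1957 that rose 1134 were called higher (57.9%). Among the 94 that fell at least 2-fold in WT, 81 fell in KO, with a median KO step of -1.09. Among the 50 that rose at least 2-fold in WT, 40 rose in KO and 1 fell, with a median of 0.888. The 2 KO 6 h arrays had not moved equally far on these genes. The 94 falling genes stood at a median of -1.36 from the KO 3 h mean in array A and -0.855 in array B, and the 50 rising genes at 1.13 in array A and 0.677 in array B. The KO 24 h arrays were at -1.46 and -1.58 for the former and 0.749 and 0.914 for the latter.

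**Figure D2:**
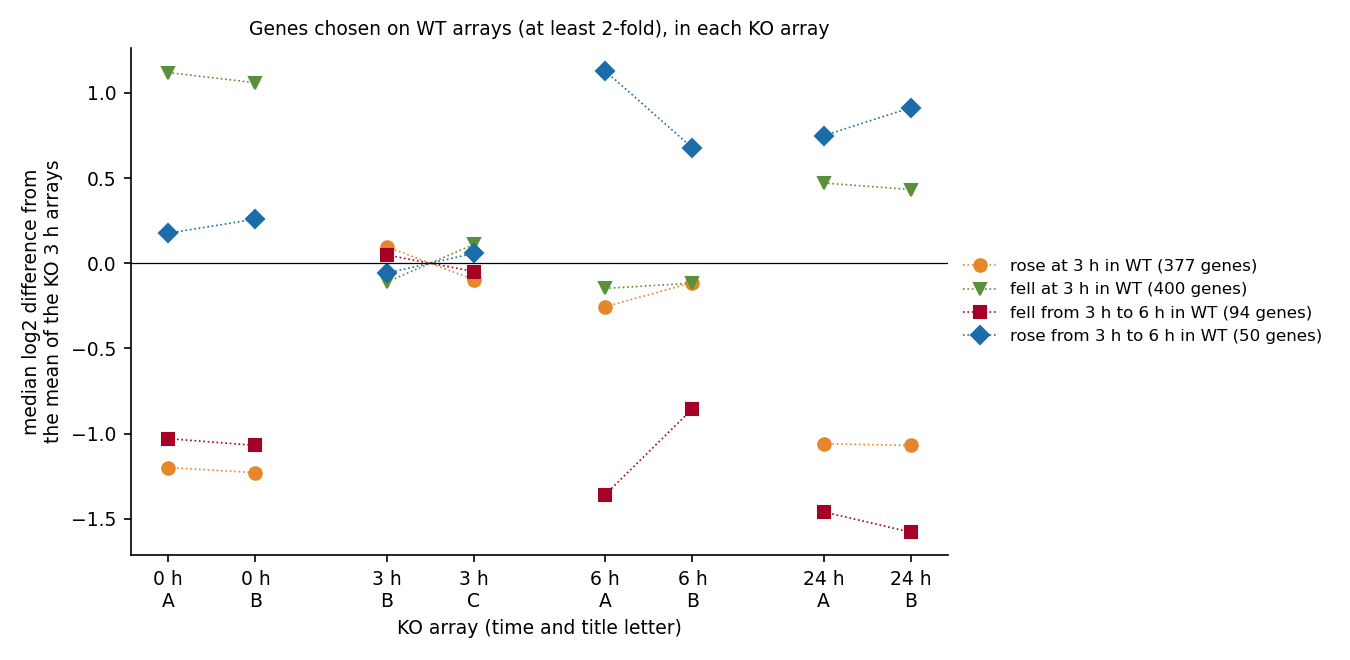
Median log2 difference from the mean of the KO 3 h arrays, in each of the 8 KO arrays, for 4 gene sets chosen at 2-fold or more on differences between WT arrays; dotted lines join the 2 arrays of a time. At 6 h array A lies farther from 3 h than array B for the sets that moved in the WT step, at -1.36 and -0.855 for the falling set.

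Over all genes 11.7% were called in each direction, the share to set beside the list counts here and below. Of 25 measured immediate-early transcription factor genes 6 fell and 1 rose, with a median step of -0.18 (0.000983 over all genes). Fos, an AP-1 subunit, was 9.20 and 9.33 at 0 h, 12.67 and 12.24 at 3 h, and 11.40 and 11.98 at 6 h (-0.77 ± 0.21, 0.0164), and so was still 2.42 above its start. Jund fell by 0.78 (7.48e-06) and Junb by 0.66 (6.72e-03), both AP-1 partners of Fos, and Jun by 0.60 (5.69e-03), Ier3 by 0.57 (0.0327) and Ier2 by 0.27 (7.32e-03). Egr2, a close relative of Egr1, was the 1 that rose: 8.97 and 8.94 at 3 h, then 10.21 in array A and 9.38 in array B (0.85 ± 0.19, 6.31e-03). Its difference from the WT step of -0.29 did not pass (adjusted p = 0.0998). Over the whole list the WT step had 17 genes called lower and 0 higher, with a median of -0.35. No member's difference between the genotypes was called. Without KO 6 h array A 2 of these genes were called lower and Egr2 was not called, and with the 4 arrays alone 1 was lower. The EGR site GCGNGGGCG, searched on both strands of the 250 bases upstream, was present for 8 of 20 immediate-early genes with a promoter (40.0%), 17 of 133 decaying rises (12.8%), 8 of 116 held rises (6.9%) and 5.86% of tested genes. Base composition was not compared, and a match is not evidence of binding.

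Of 25 feedback inhibitors 6 fell and 2 rose in KO (median -0.118). In WT 15 were called lower and 1 higher (median -0.282), and no member's difference between the genotypes was called. Besides Socs3, the kinase phosphatase genes Dusp6 (-0.93, 1.64e-03) and Dusp5 (-0.75, 7.92e-05), the mRNA decay factor gene Zfp36 (-0.72, 0.0276), the cytokine inhibitor gene Cish (-0.60, 1.59e-03) and the EGF receptor inhibitor gene Errfi1 (-0.46, 0.0105) fell in KO. The EGR corepressor gene Nab1 rose by 0.47 (2.85e-03), and its relative Nab2 had a step of -0.05 (0.760). Leaving out KO 6 h array A, 4 of them were called lower, and without KO 6 h array B 9 were.

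Of 19 early estrogen-response genes 7 fell and 5 rose (median -0.0601). The water channel gene Aqp5 was 8.63 and 8.62 at 0 h, 11.39 and 11.59 at 3 h, and 9.86 and 9.96 at 6 h (-1.58 ± 0.18, 4.93e-05), with arrays of each time close together. Wnt4 (-1.18, 7.93e-04), Ptges, Greb1 (-0.84, 1.21e-03), Igfbp3 (-0.78, 0.0110), Vegfa (-0.75, 7.65e-04; other probes -0.87 and 0.17) and Adm (-0.24, 0.0391) fell. Igf1, Inhba, the polyamine enzyme gene Odc1 (0.70, 5.27e-03), the implantation cytokine gene Lif (0.43, 4.44e-03) and Fst (0.25, 0.0194) rose, so transcripts of the same early list moved both ways. Without KO 6 h array A 3 of the list were called higher and 5 lower. The progesterone receptor gene Pgr had a step of 0.21 (0.333). Of 17 receptor genes 3 fell and 0 rose, a count of falls near the 11.7% of all genes called lower. These were Pparg by 1.26 (1.62e-04; other probes -0.28 and -0.10), Esr1 by 0.52 (0.0446) and Nrip1 by 0.24 (0.0102). Esr1 was 11.11 and 10.43 and then 10.37 and 10.12, and its other probes read 0.04 and 0.20. Leaving out KO 3 h array B, 1 receptor gene was called.

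Genes of amino acid supply made the widest rise. ATF4 is a transcription factor translated when amino acids run short or the endoplasmic reticulum is stressed. It binds the C/EBP-ATF response element (CARE) of genes for amino acid synthesis, transport and tRNA charging. Of 23 measured genes of the ATF4 response 12 rose and 2 fell, with a median step of 0.46. Of 19 aminoacyl-tRNA synthetase genes 15 rose and 1 fell, with a median of 0.685. Both lists had been chosen with earlier results of these arrays known.

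Asns, asparagine synthetase, was 12.03 and 11.44 in the KO 3 h arrays and 13.27 and 13.67 in the KO 6 h arrays, against a mean of 11.23 at 0 h. The 3 h arrays lay on both sides of 11.47, the higher 0 h array, and the 6 h arrays lay above both, a step of 1.73 ± 0.21 SE (9.35e-05), with 2 further probes at 0.91 and 1.79. Psat1 was 11.51 and 10.99 and then 12.53 and 13.13 (1.58 ± 0.25, 5.45e-04). The proline synthesis gene Aldh18a1 was 10.68 and 10.14 and then 11.68 and 11.97 (1.41 ± 0.18, 1.26e-04). The glycine transporter gene Slc6a9 rose by 1.20 (2.73e-03), the mitochondrial folate genes Aldh1l2 by 1.15 (0.0140), Mthfd2 by 1.14 and Shmt2 by 0.92 (1.57e-04), and the cystine transporter gene Slc7a11 by 1.03 (7.54e-04). Nupr1 (0.85, 8.57e-04), Atf5 (0.65, 2.81e-03), Ddit3 (0.51, 0.0206) and Phgdh (0.46, 2.57e-04) completed the 12.

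Atf4 and its partner gene Cebpb were not among the rises. Atf4 was 13.00 and 13.17 at 3 h and 12.97 and 13.10 (step -0.05, 0.714). Its partner gene Cebpb fell by 0.74 (3.76e-04) and the glutamine transporter gene Slc38a2 by 0.55 (1.50e-03). Chac1, a glutathione-degrading enzyme gene, was 13.66 and 12.47 at 3 h and 10.06 in KO 6 h array A but 12.71 in array B, a step of -1.68 that did not pass (0.0653). Trib3, a kinase-like brake on ATF4, was 11.37 and 10.66 and then 9.90 and 11.39. For both genes array A lay below the 3 h arrays; array B lay between them for Chac1 and just above them for Trib3.

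The whole ATF4 list averaged 10.86 and 10.57 in the KO 3 h arrays, 10.88 in KO 6 h array A and 11.41 in array B. Array B was thus the higher 6 h array here, while it lay nearer to 3 h for the genes that fell in the WT step. Without array B 9 genes of the list were called higher and 4 lower, and without array A 14 and 2. The fit of the 4 arrays alone called 7 higher and 2 lower. In WT the list had 7 called higher and 5 lower, with a median step of -0.0677. No member's difference between the genotypes was called.

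Among the synthetases, Aars, for alanine, was 12.21 and 11.69 at 3 h and 12.80 and 13.15 at 6 h (1.03 ± 0.17, 9.24e-04), though its other probe read -0.27. Mars1, for methionine, went from 10.26 and 10.15 to 11.15 and 11.24 (0.99 ± 0.11, 6.94e-05). Lars, for leucine, went from 12.64 and 12.31 to 13.24 and 13.57 (0.93 ± 0.11, 9.55e-05). Sars, for serine, rose by 0.92 (1.41e-04; other probe 0.08). The 1 that fell was Cars, for cysteine, from 11.50 and 11.18 to 10.27 and 10.68 (-0.87, 3.19e-04). The remaining 3 were Qars, Hars and Farsa, with steps of 0.05, 0.11 and -0.13. Of the 16 called members 15 stayed called without each of the 4 arrays in turn, and the fit of these arrays alone called 9 higher and 1 lower. In WT 10 were called higher and 1 lower, with a median of 0.452.

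The 250 bases upstream of the RefSeq starts (GRCm38.p6) were searched on both strands for TGATGNAA, the CARE core. It was present for 5 of the 21 ATF4-list genes with a promoter (23.8%) and 3 of the 12 synthetase genes (25.0%), against 2.87% of the 11820 tested genes with one. The 6 of these whose expression rose are shown 5′ to 3′ on the gene's strand, because they let the motif be read beside the steps above. The match is in capitals, as TGATGNAA or its reverse complement, and a match is not evidence of binding.
Asns, chr6:7693210-7693262, minus strand: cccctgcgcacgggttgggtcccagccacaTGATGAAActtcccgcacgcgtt
Nupr1, chr7:126625543-126625610, minus strand: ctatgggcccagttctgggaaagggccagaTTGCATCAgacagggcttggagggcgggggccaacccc
Slc7a11, chr3:50443623-50443709, minus strand: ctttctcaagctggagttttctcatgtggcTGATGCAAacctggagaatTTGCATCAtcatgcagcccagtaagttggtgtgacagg
Aars, chr8:111033700-111033767, plus strand: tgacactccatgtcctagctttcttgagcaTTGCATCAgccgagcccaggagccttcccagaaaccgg
Gars, chr6:55037941-55038000, plus strand: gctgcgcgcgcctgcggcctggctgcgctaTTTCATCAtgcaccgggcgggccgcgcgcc
Tars, chr15:11399659-11399703, minus strand: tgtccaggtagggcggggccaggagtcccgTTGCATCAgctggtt

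In Slc7a11 2 matches stand close together in opposite orientation, and in the other 5 genes there is 1. The steps of the 6 genes ran from 0.74 (Gars and Tars) to 1.73 (Asns). The other 2 matches were in Vldlr (step 0.23, 0.173) and Chac1. Further motifs were searched in the same way. The E-box CACGTG had the same share as CARE in the synthetase genes, 3 of 12 (25.0%). It was present for 2 of the 21 ATF4-list genes (9.52%), 5 of the 20 immediate-early genes (25.0%) and 9.05% of tested genes.

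Of 28 chaperone and folding genes of the endoplasmic reticulum (ER) 10 rose and the other 18 did not pass (median 0.375). Dnajb9 was 11.31 and 10.87 and then 12.09 and 11.78 (0.85 ± 0.17, 2.66e-03). The translocon channel gene Sec61a1 rose by 0.73 (2.15e-03), the disulfide isomerase gene Pdia4 by 0.68 (0.0344) and Dnajc3, an inhibitor of the kinase PERK, by 0.66 (0.0330). The central chaperone gene Hspa5 was 9.43 and 8.88 and then 9.77 and 9.45 (0.46, 0.120). KO 6 h array A was the higher for this list, at a mean of 10.81 against 10.53. Without KO 3 h array C or without KO 6 h array A 2 were called, with KO arrays only 3 and with the 4 arrays alone 1. In WT 18 of the 28 were called higher.

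The ER stress element (ERSE), CCAAT and CCACG set 9 bases apart, was found upstream of 10 of the 23 ER genes with a promoter (43.5%) and of 0.152% of tested genes. Of these 10 genes only Dnajc3 and Ero1b were called. The steps of the rest ran from 0.0 (Canx, 0.993) to 0.82 (Creld2, 0.0777). The list was chosen with earlier results of these arrays known, and a match is not evidence of binding. The 2 called genes that hold it are shown with the element in capitals. In Ero1b (step 0.39, 0.0143) it lies on the other strand.
Dnajc3, chr14:118937797-118937875, plus strand: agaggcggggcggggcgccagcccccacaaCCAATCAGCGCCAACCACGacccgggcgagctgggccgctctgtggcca
Ero1b, chr13:12565652-12565730, plus strand: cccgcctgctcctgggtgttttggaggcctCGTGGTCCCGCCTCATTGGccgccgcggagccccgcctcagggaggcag

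Of 18 cholesterol synthesis and uptake genes 9 were called higher and the other 9 did not pass (median 0.366). Hsd17b7 was 10.59 and 10.11 and then 11.79 and 11.38 (1.23 ± 0.15, 1.00e-04; other probe 0.19). Cyp51 rose by 0.92 (4.75e-03), Lss by 0.86 (6.11e-04; other probe 0.02), Sqle by 0.85 (0.0132) and Insig1, the ER anchor of the pathway's regulator, by 0.63 (2.47e-04). Array A was again the higher 6 h array, with list means of 10.04 and 9.74. Without array A 3 were called without KO 3 h array C 5, and with the 4 arrays alone 3. In WT 14 of the 18 were called higher. The motif TCACNCCAC, bound by SREBP factors, was found upstream of 0 of the 15 cholesterol genes with a promoter and of 1.21% of tested genes.

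Ribosome biogenesis genes (30 measured) had a median change from 0 h of 0.77 at 3 h and 1.0 at 6 h. In the step 11 rose and the other 19 did not pass (median 0.157). Bop1 rose by 0.69 (9.24e-04; other probe -0.10), Mybbp1a by 0.65 (8.79e-05; other probes 0.15 to 0.61), Rrp12 by 0.63 and Polr1a, the large subunit of RNA polymerase I, by 0.57 (6.60e-04; other probes -0.03 to 0.21). Leaving out KO 3 h array C, 5 were called. Of 8 polyamine and arginine genes 4 were called higher, Srm (0.79, 9.05e-03) and Odc1 among them, and the other 4 did not pass (median 0.177); 2 were called in the fit of the 4 arrays alone, without KO 3 h array C or without KO 6 h array A.

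Of 23 late secretory and mucosal genes 9 rose and 2 fell (median 0.354). Sprr2f, Lcn2 and Sprr2g led the rises and the mucin gene Muc1 rose by 0.71 (6.63e-03), while Prap1 and Wfdc2 (-0.56, 1.48e-03) fell. Ltf, lactoferrin, a late estrogen marker, had a step of 0.03 (0.959). Without KO 3 h array B 4 were called higher and 2 lower. Mitosis genes averaged 8.57 to 9.12 in the 4 arrays, near the array median of 8.205, where changes are compressed. Few cell division genes were called, where 23.3% of all genes were called either way. In limma 0 of 22 mitosis genes was (4 lower at an unadjusted p under 0.05, and 3 called lower without KO 3 h array B), and of 32 DNA replication genes only Pole (-0.52, 7.21e-03) and Rfc5 (-0.42, 8.26e-03; other probes 0.16 and 0.03) were, both lower, and neither without KO 3 h array B. Upstream of division, Ccnd1, the D-type cyclin gene, was 11.76 and 11.46 and then 12.52 and 12.26 (0.78 ± 0.10, 1.59e-04; other probes 0.72 and 0.15), and Cdk4 rose by 0.44 (5.03e-03) while the CDK inhibitor gene Cdkn1c fell by 0.72 (2.15e-03). The WT step of Ccnd1 was 0.05, and the difference did not pass (0.0589).

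Of 25 growth restraint and FOXO-type genes 11 fell and the other 14 did not pass (median -0.428). Besides Ypel3, Tob1 and Klhl24, Mxd4, a MAX partner that opposes MYC, went from 10.72 and 11.35 to 10.12 and 10.33 (-0.81 ± 0.16, 2.91e-03; other probes -0.32 and -0.06). The atrophy ligase gene Fbxo32 (-0.68, 0.0356), the autophagy gene Gabarapl1 (-0.64, 0.0154) and Foxo3 (-0.47, 1.41e-04) fell too, and Foxo1 had a step of -0.03 (0.763). Leaving out KO 3 h array C or KO 6 h array A, 6 were called, and in the fit of the 4 arrays alone 3. Of 15 clock genes 8 fell and 7 did not pass (median -0.327). Nr1d2, a REV-ERB repressor, was 10.66 and 10.97 and then 9.38 and 9.83 (-1.21 ± 0.14, 8.24e-05). Per2 fell by 0.99 (1.25e-04; other probes -0.23 and -0.97), Rora by 0.87 (5.81e-04), Tef by 0.83 (1.75e-03; other probe -0.15) and Cry2 by 0.66 (1.72e-03), while the core activator genes Clock (0.08) and Arntl (0.22) did not pass. Without KO 6 h array A 5 were called, and in the fit of the 4 arrays alone 3. The labels used here do not state the hour of day of the collections.

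In the signalling and matrix lists that follow, many counts lie near the 11.7% of all genes called in each direction. Of 28 chemokine and cytokine genes 8 rose and 1 fell. Ccl4 (1.26, 1.91e-03) and the monocyte attractant gene Ccl7 (0.85, 4.12e-04) rose. The eosinophil attractant gene Ccl11 was 9.18 and 9.42 and then 11.46 in array A and 9.90 in array B (1.38 ± 0.35, 0.0118). Cxcl14 fell by 0.65 (1.10e-03). Macrophage markers (13 measured) averaged 9.5 and 10.07 at 3 h and 9.90 and 9.84 at 6 h, with 0 called and 0 at an unadjusted p under 0.05. Without array A 5 chemokine genes were called higher. Of 29 Wnt genes 5 rose and 8 fell: Wnt7a, an epithelial ligand, was 10.05 in both 3 h arrays and 11.65 and 11.30 at 6 h (1.42 ± 0.12, 9.67e-06), while the inhibitor genes Dkk3 (-1.20, 2.18e-04) and Sfrp2 (-1.19, 2.27e-05) and the ligand gene Wnt4 fell. Leaving out KO 6 h array A, 3 Wnt genes rose and 5 fell, and without KO 3 h array B 3 and 6.

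Of 22 matrix protease and hyaluronan genes 7 rose and 4 fell. Plat, tissue plasminogen activator, was 11.97 and 11.40 and then 13.10 and 13.07 (1.40 ± 0.24, 1.01e-03; other probe -0.09), and the protease inhibitor gene Timp1 rose by 0.90 (3.60e-03) while Timp2 fell by 0.64 (1.83e-03). Without KO 6 h array A 3 rose and 2 fell, and without KO 3 h array C 5 and 2. Of 28 extracellular matrix genes 5 rose and 4 fell, with Tnc, Fbln2 (0.87, 2.51e-04) and Thbs2 (0.84, 1.97e-03) up and Tnxb down (-0.95, 7.11e-04; other probes -0.85 to 0.03). Leaving out KO 3 h array C, 3 rose and 2 fell, and without KO 6 h array A 3 and 3. Of 14 glycolysis genes 3 rose and 4 fell, among them the glucose transporter gene Slc2a3, from 11.89 and 11.79 to 9.71 and 10.65 (-1.65 ± 0.25, 3.77e-04). Without KO 6 h array A 1 rose and 3 fell. Of 24 angiogenic and vasoactive genes 2 rose and 5 fell, led by the placental growth factor gene Pgf (-1.06, 4.91e-04), and of 13 prostaglandin genes 4 rose, with the receptor gene Ptger3 first (0.83, 1.41e-04), and Ptges fell. Leaving out KO 3 h array B, 3 angiogenic genes fell and 2 prostaglandin genes rose, as 2 of the latter did without KO 6 h array A. Of the 22 interferon-stimulated genes 1 rose and 2 fell, and 13 were called lower without KO 3 h array B.

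**Figure D3:**
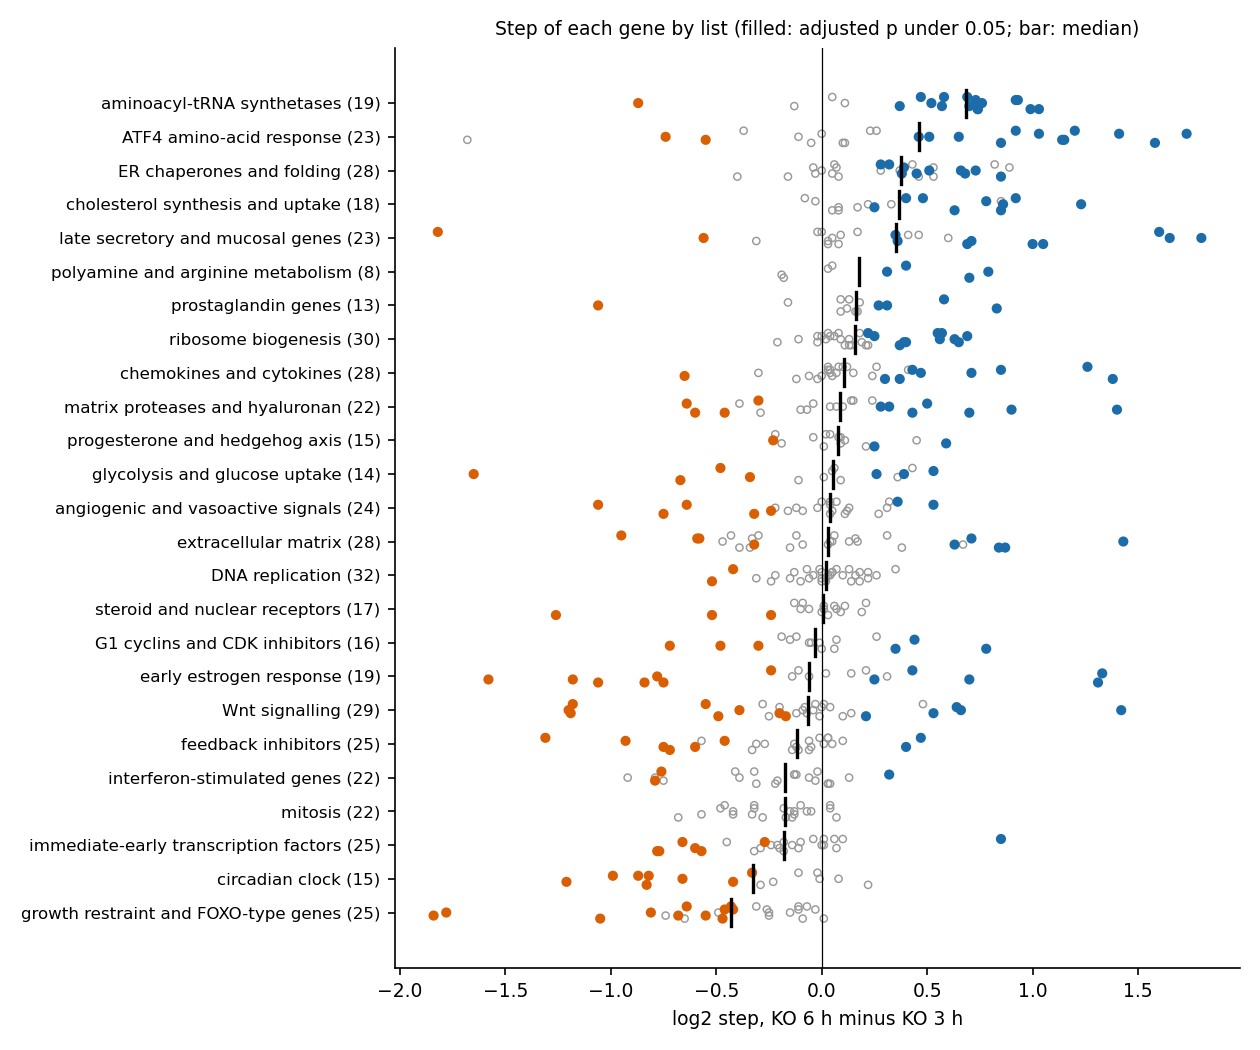
Log2 step from KO 3 h to KO 6 h of each measured gene in 25 pathway lists, ordered by the list median (black bar), with the number of measured genes in brackets. Filled points were called (blue higher, orange lower); the synthetases lie highest with a median of 0.685 and the growth restraint genes lowest at -0.428.

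The step was also set against the WT step directly. The difference was called for 22 genes (0.149%), 11 with the KO step higher (0.0746%) and 11 lower (0.0746%), and 1625 genes had an unadjusted p under 0.05. Without WT 6 h array A 0 genes were called in limma (1213 unadjusted), without WT 6 h array B 3, without WT 3 h array C 13, and without KO 3 h array B 158, KO 6 h array A 115 or KO 6 h array B 39. All 22 kept their sign without each KO or WT array of 3 h or 6 h in turn. They were chosen for called differences on these same arrays, so a kept sign is no independent check.

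The tight-junction gene Cldn3 was 10.65 and 11.17 in KO at 3 h and 10.23 and 10.52 at 6 h, while WT went from 10.44, 10.14 and 10.31 to 11.46 and 11.26. It fell in KO (-0.53, 0.0294) and rose in WT (1.06, 1.80e-04), a difference of -1.59 ± 0.22 SE (0.0113). The fall of Cldn3 in KO lost its call with KO arrays only, with the 4 arrays alone, with the block by title letter and with array weights. Tfcp2l1 fell by 1.94 in KO and by 0.46 in WT (difference -1.48 ± 0.20, 0.0113), from a lower WT level of 12.65 to 13.02 at 3 h. The mitochondrial carrier gene Slc25a48 rose by 1.65 in WT, while in KO it was 9.83 and 10.25 and then 9.32 and 10.26 (difference -1.90 ± 0.32, 0.0317). Il17rb, an interleukin receptor gene, rose by 1.20 in WT against -0.02 in KO (difference -1.22, 0.0113), and Tmem254a fell by 0.95 in KO (difference -1.39, 0.0484).

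On the other side, the keratin gene Krt23 rose from 9.61 and 9.46 to 10.13 and 10.05 in KO and fell from 10.98 to 11.34 at 3 h by 0.85 in WT (difference 1.41 ± 0.21, 0.0184). Has1, a hyaluronan synthase gene, rose by 0.28 in KO (8.94 and 8.75, then 9.17 and 9.08) and fell by 0.68 in WT, where it had been 9.88 to 10.12 at 3 h (difference 0.96 ± 0.11, 9.98e-03). Sele, the endothelial adhesion molecule E-selectin, fell by 0.80 in WT and had a KO step of 0.14 (difference 0.94, 0.0113). In KO it was 8.36 and 8.12 and then 8.34 and 8.42, near the array median of 8.205 at both times. In WT it was 8.94, 8.78 and 9.13 and then 8.15 in both arrays. Prg2, an eosinophil granule protein gene, differed by 0.86 (0.0182), in values of 8.31 to 8.78 in KO. Fermt1, an integrin activator gene of epithelia, rose in both, by 1.36 in KO and 0.47 in WT (difference 0.89 ± 0.15, 0.0317; its other probe had a KO step of 0.18). For Krt23, Has1 and Sele the WT arrays started the step from a higher 3 h level than the KO arrays, and WT fell where KO rose or was not called. The KO rises of Krt23 and Has1 lost their call with array weights. That of Has1 was also lost with the 4 arrays alone and with the block by title letter.

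**Figure D4:**
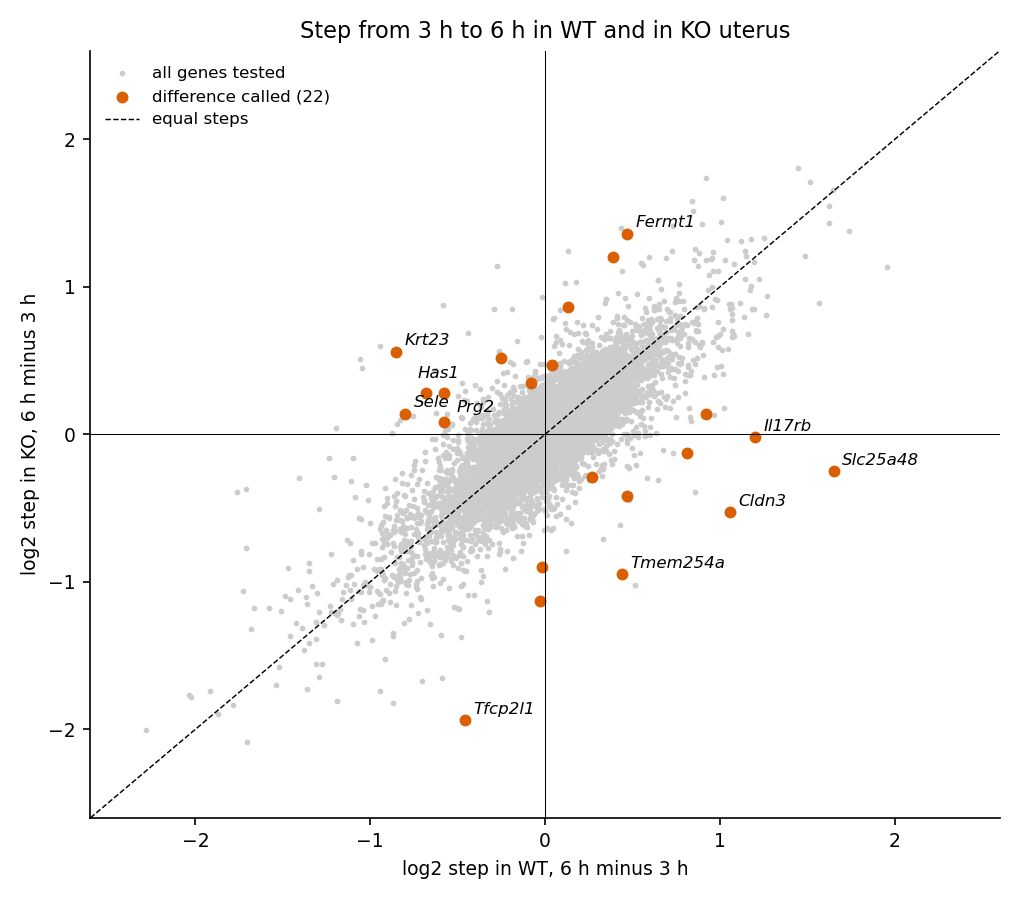
Log2 step from 3 h to 6 h in WT (horizontal) and in KO (vertical) for each gene tested, with equal steps on the dashed line and the 22 called differences in orange. Cldn3 lies at 1.06 in WT and -0.53 in KO, and Krt23 at -0.85 and 0.56.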

How the data were processed

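Total uterine RNA was, per the labels' protocols, biotin-labelled for Illumina MouseWG-6 v2 arrays and read with BeadStudio, per the submitters' processing notes. The deposited values are log2 intensities that the authors had already normalized: all 17 columns share 1 distribution (median 8.205, lowest 7.391), which compresses changes of dim probes. Of 45281 probes 34885 had 1 gene symbol. Probes above the array median on at least 2 arrays were kept and the brightest stood for its gene, giving 14737 genes. With limma 3.58.1, 8 group means were estimated over all arrays (R 4.3.3, eBayes without trend, two-sided tests, Benjamini-Hochberg over all genes, threshold 0.05), so the spread is shared between groups. No label says that arrays of a group are separate animals, so the p-values cover only the scatter among these samples and that scatter may be technical. The number of arrays limits the precision. The fit was also run on simulated data in which the spread of a gene was the same in every group. That run could not show what unequal spread between groups does to the fit.

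The genes, gene lists and tests were chosen with earlier results of these data known. Named were the 10 largest rises and falls among called genes whose arrays did not overlap, 5 per class, up to 4 called per list (others in a list were chosen after their values were seen), the 5 highest and lowest differences from WT, and Egr1. Of the 150 genes so named 76 had another kept probe, of opposite sign for 14. Probes of opposite sign are given beside the genes whose steps the text gives, and other probes for some genes only. Among those not given there, probes of Sec61a1 (0.2), Nr1d2 (-0.38) and Rspo3 (0.29) moved less than the probe used. Arrays are called by the letter in their title, which for KO 3 h (B, C) is not the replicate number of the labels. Alternatives were a fit of KO arrays or of the 4 arrays alone, replicate blocks, filters, cyclic loess, a subtracted floor, an intensity trend, array weights, the mean over probes and leaving out each array of 0, 3 and 6 h (for KO 0 h and WT arrays partly chosen after seeing the data). Promoters came from RefSeq (GRCm38.p6). 5597 probes with no listed gene were tested and are not named.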

Additional observations from a re-analysis of the deposited data

Results flagged for a closer look

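For 10 of the genes named, the step from 3 h to 6 h differed between KO and WT uterus by the test of the difference itself. These 10 were chosen for large differences on the same arrays, so the kept signs given below are no independent check. KO minus WT was -1.90 for Slc25a48, -1.59 for Cldn3, -1.48 for Tfcp2l1, -1.39 for Tmem254a and -1.22 for Il17rb. It was 1.41 for Krt23, 0.96 for Has1, 0.94 for Sele, 0.89 for Fermt1 and 0.86 for Prg2. Without WT 6 h array A none of the 10 was called in limma (1213 genes of all tested had an unadjusted p under 0.05), and each kept its sign.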

How the results depend on the processing

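A fit of the 4 step arrays alone called 893 genes (892 of them among the 3440), 75 rather than 192 members of the pathway lists, 65 rather than 136 WT early rises as lower and 23 rather than 60 WT early falls as higher. Array weights gave 2144 genes and 37 decayed falls. Cyclic loess called 1342 genes higher and 2054 lower, where the main split was 1718 and 1722. Subtracting the floor gave 98 decayed falls, 556 held and 126 starting genes. The mean over probes gave 30 decayed falls, 60 grown changes and 30 returning WT falls. With early changes of any size 703 rises and 474 falls decayed, 3770 held and 967 grew. Leaving out 1 array at a time gave 1885 to 3889 called genes, 124 to 217 list members, 0 to 158 differences from WT, 116 to 193 decayed rises, 36 to 79 decayed falls, 251 to 436 held, 52 to 126 grown and 25 to 116 starting genes, and 93 to 160 falling and 33 to 70 returning WT genes; a lone array is assumed to vary like the other groups. Leaving out WT 0 h arrays, an alternative chosen after seeing the data, gave 49 differences. The cause of these shifts was not tested.

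With the replicate number of the labels as a replicate block 3351 genes were called, 3227 of them shared with the fit without it. Same-numbered KO arrays deviated together with a correlation across genes of 0.0851, so the numbers were not taken as pairs. A replicate block by title letter in the KO arrays alone called 987 genes, 69 list members, 83 falling and 35 returning WT genes, with 505 held and 27 grown. Of the results on the 150 named genes, 66 lost their call with the 4 arrays alone, 68 with the letter block and 42 without KO 6 h array A; no called step changed sign under the alternatives run.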
